A study of Bos taurus with 16 samples.

Results

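Transcripts of 9 genes were followed in cultured bovine theca cells: the type I receptors BMPR1A, BMPR1B and ACVR1, the type II receptors BMPR2, ACVR2A and ACVR2B, the co-receptor ENG, and the modulators BAMBI and TMEM100. Every probe set that GEO's platform annotation assigns to exactly 1 of these symbols was taken, which gave 15 probe sets and covered 9 of the 9 genes, out of 24016 probe sets and 9155 named genes tested. Theca interna cells, the steroid-producing layer in the wall of the ovarian follicle, had been isolated from adult cattle ovaries collected at a slaughterhouse, pooled over many follicles and kept for 6 days in serum-free medium. From day 3 the wells received no hormone (control), luteinising hormone at 160 pg/ml (LH), bone morphogenetic protein 6 at 10 ng/ml (BMP6) or both at these doses (LH+BMP6), for 4 days of treatment. Each group held 4 Affymetrix bovine arrays, 16 in all, from cultures repeated on different batches of ovaries. Pooling means that an array stands for a culture and not for an animal.

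Bone morphogenetic proteins (BMPs) are secreted ligands that bring together type I and type II receptors at the cell surface. The type II receptor, which is always active as a kinase, phosphorylates the type I receptor, and that receptor then phosphorylates SMAD transcription factors, which enter the nucleus and switch on genes such as the ID family. In the follicle, theca cells both make and respond to BMPs, which are known to hold back androgen synthesis in these cells. Co-receptors such as endoglin present the ligand, and BAMBI, a receptor-like protein without a kinase, dampens the signal.

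Values are log2 signals, so a difference of 1 means a doubling of signal. Levels are given as mean ± SD of 4 arrays and differences ± SE from limma, and "called" means an adjusted p under 0.05 (Benjamini-Hochberg, over all probe sets). Signals of different probe sets are not on a common scale, so levels are compared between groups and not between genes. The number of arrays limits the precision: the SE of a group difference had a median of 0.102. Hybridisation controls (9 spiked probe sets) averaged only 8.66 to 8.71 on control replicate 1, control replicate 3 and LH replicate 1, while the remaining 13 arrays gave 9.84 to 10.17. None of these 3 low arrays held BMP6, so the limma differences of the member probe sets were also fitted without them. Of 7 listed theca markers, 0 had a mean under the lower quartile of the arrays (4.31 to 4.43), and INSL3, the theca peptide hormone, stood at 14.08 ± 0.19 in control (n = 4).

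With BMP6 in the medium, the modulator BAMBI and the co-receptor ENG rose, and the modulator TMEM100 rose on 1 of its 2 probe sets. The type II receptor BMPR2 rose on 1 of its 3 probe sets with and without LH, and the type I receptor BMPR1B fell on 1 of its 2 probe sets. BMPR1A, ACVR1 and ACVR2B passed the test in neither comparison. In BMP6 against control, 7 of the 15 member probe sets were called, belonging to 6 genes, while 18.1% of all probe sets were called. Of these 7, 6 were higher and 1 lower, against 8.12% higher and 9.95% lower over all probe sets. In LH+BMP6 against LH, 5 of the 15 were called, 4 higher and 1 lower, against 20.3% of all probe sets (9.99% higher and 10.3% lower). The median difference over the 15 member probe sets was 0.19 in BMP6 against control and 0.10 in LH+BMP6 against LH, beside 0.01 and -0.02 over all probe sets. The 5 probe sets called in both comparisons were those for BAMBI, ENG and BMPR1B described next, 1 of TMEM100 and 1 of BMPR2. For these same 5, the 8 arrays with BMP6 did not overlap the 8 without it, with 4 higher and 1 lower. Over all probe sets 11.1% did not overlap, 4.75% higher and 6.34% lower. A sign of RNA quality, the 3 prime excess of actin and GAPDH, was also lower with BMP6 over both LH conditions (differences of -0.36 and -0.12). Because RNA came from whole cultures, fewer cells of a type and less RNA per cell cannot be told apart for any gene.

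**Figure D1:**
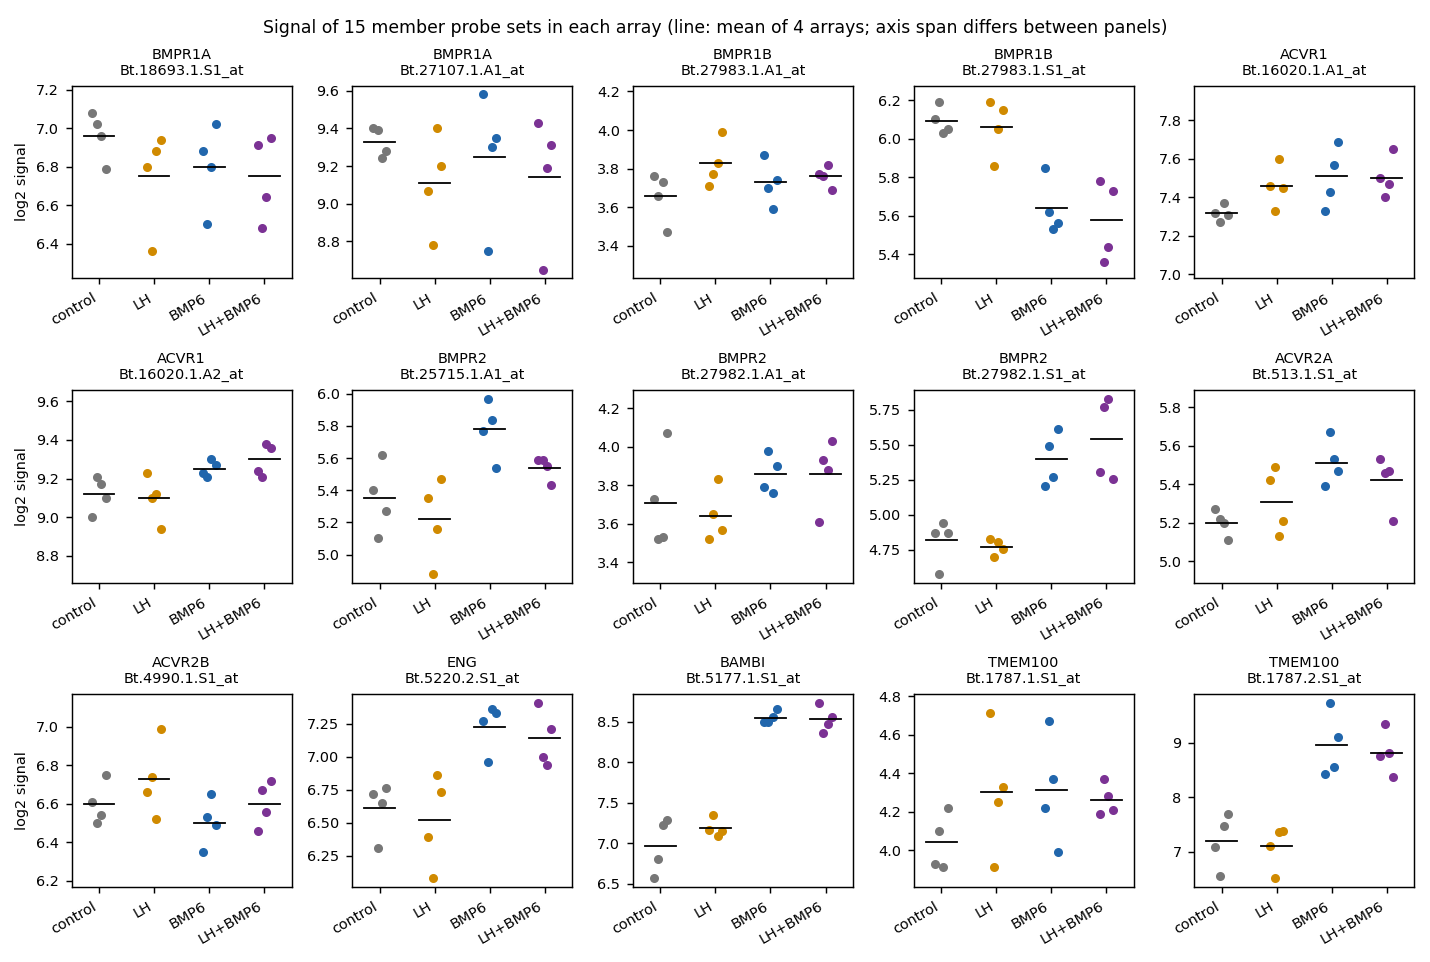
Log2 signal (vertical axis, its span set per panel) of the 15 member probe sets in each of the 16 arrays, grouped by treatment; points are arrays and lines are means of 4 arrays. In the panels of BAMBI, ENG, TMEM100 Bt.1787.2.S1_at and BMPR2 Bt.27982.1.S1_at the arrays with BMP6 all lie above those without it, and in the panel of BMPR1B Bt.27983.1.S1_at they all lie below.

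BMPR1B, a type I receptor known for its part in ovulation rate in sheep, was the only member with a called decrease. On probe set Bt.27983.1.S1_at the 4 control arrays read 6.10, 6.19, 6.03 and 6.05 and the LH arrays 6.19, 5.86, 6.05 and 6.15. The BMP6 arrays read 5.85, 5.62, 5.53 and 5.56 and the LH+BMP6 arrays 5.78, 5.36, 5.44 and 5.73. Every array with BMP6 was thus below every array without it, though by a narrow margin, since the lowest LH array and the highest BMP6 array lay next to each other. The level fell from 6.09 ± 0.07 to 5.64 ± 0.14 with BMP6 alone, a difference of -0.45 ± 0.11 (1.37-fold lower, limma adjusted p = 0.00757). Against LH, it fell from 6.06 ± 0.15 to 5.58 ± 0.21, a difference of -0.48 ± 0.11 (1.4-fold lower, adjusted p = 0.00435).

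The other BMPR1B probe set, Bt.27983.1.A1_at, is annotated with the same source sequence and was not called. It read between 3.47 and 3.99 on the 16 arrays, under the lower quartile of every array, and differed by 0.07 ± 0.08 (adjusted p = 0.635) without LH and by -0.07 ± 0.08 (adjusted p = 0.639) with it. At that level little of a fall could be read from it. With the mean of both probe sets standing for BMPR1B the fall was -0.19 (adjusted p = 0.123) without LH, which is not called, and -0.27 (adjusted p = 0.0236) with LH. Without the 3 arrays of low hybridisation signal, the Bt.27983.1.S1_at values were -0.48 (adjusted p = 0.043) and -0.44 (adjusted p = 0.0298).

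BMPR1A, the widely expressed type I receptor for BMP2 and BMP4, passed the test on neither of its probe sets. On Bt.27107.1.A1_at the control arrays read 9.40, 9.39, 9.24 and 9.28 and the BMP6 arrays 9.58, 8.75, 9.30 and 9.35. The LH arrays read 9.07, 8.78, 9.40 and 9.20 and the LH+BMP6 arrays 9.43, 8.65, 9.19 and 9.31. The groups overlapped throughout, and in each of the LH, BMP6 and LH+BMP6 groups replicate 2 was the lowest array. BMP6 against control gave -0.08 ± 0.17 (95% interval -0.45 to 0.29) and LH+BMP6 against LH gave 0.03 ± 0.17 (-0.34 to 0.40). On Bt.18693.1.S1_at replicate 2 was again the lowest of those 3 groups, and the differences were -0.16 ± 0.14 (-0.46 to 0.13) and 0.00 ± 0.14 (-0.30 to 0.29).

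ACVR1, also called ALK2, is a type I receptor through which BMP6 is known to signal. Its probe set Bt.16020.1.A2_at read 9.0, 9.21, 9.17 and 9.10 in control, 9.23, 9.10, 9.12 and 8.94 with LH, 9.23, 9.21, 9.30 and 9.27 with BMP6, and 9.24, 9.21, 9.38 and 9.36 with LH+BMP6. The arrays with BMP6 lay at or above the upper end of the others, with overlap at 9.21 to 9.23. ACVR1 differed by 0.13 ± 0.07 (adjusted p = 0.246) without LH and by 0.20 ± 0.07 (adjusted p = 0.0617) with LH. The LH+BMP6 against LH value lay near the threshold and was called under 5 of 22 alternatives, for example at 0.25 (adjusted p = 0.0409) without the 3 low-hybridisation arrays. On the other ACVR1 probe set, Bt.16020.1.A1_at, the differences were 0.19 ± 0.09 (adjusted p = 0.16) and 0.04 ± 0.09 (adjusted p = 0.786).

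The type I receptors were also compared within arrays, each by its probe set of highest signal. The BMP6 difference of BMPR1B on Bt.27983.1.S1_at was lower than that of ACVR1 by 0.63 (change of -0.63, exact two-sided permutation of the BMP6 label within LH conditions, p = 0.000408, the smallest that test can give; adjusted p = 0.00286 over 7 pairs of members) and lower than that of BMPR1A by 0.44 (p = 0.00408, adjusted p = 0.00952). BMPR1A and ACVR1 changed by amounts whose gap was -0.19 (exact p = 0.184, adjusted p = 0.215). These pairs, and those below, were chosen after the values had been seen, and they compare changes, not levels. No pair was run on the mean of the BMPR1B probe sets.

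BMPR2, the type II receptor that is selective for BMPs, was represented by 3 probe sets. Bt.27982.1.S1_at read 4.87, 4.58, 4.94 and 4.87 in control and 4.83, 4.70, 4.81 and 4.76 with LH. It read 5.21, 5.49, 5.27 and 5.61 with BMP6 and 5.31, 5.77, 5.83 and 5.26 with LH+BMP6. The arrays without BMP6 stayed below 5 and those with BMP6 above it, with no overlap, and within LH+BMP6 the arrays fell into a higher and a lower pair. BMPR2 rose by 0.58 ± 0.13 with BMP6 alone (1.49-fold, limma adjusted p = 0.0047) and by 0.77 ± 0.13 with LH present (1.7-fold, adjusted p = 0.000499). Without the 3 low-hybridisation arrays these were 0.67 (adjusted p = 0.0196) and 0.78 (adjusted p = 0.00278).

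Bt.25715.1.A1_at, the BMPR2 probe set of highest mean signal, read 5.40, 5.10, 5.62 and 5.27 in control and 5.77, 5.97, 5.84 and 5.54 with BMP6. The highest control array lay above the lowest BMP6 array. The difference was 0.43 ± 0.13 (adjusted p = 0.0296) without LH, which is called, and 0.33 ± 0.13 (adjusted p = 0.0927) with LH, which is not. The call without LH was lost when control replicate 1, 2 or 4 or BMP6 replicate 1, 2 or 3 was left out, with values of 0.35 to 0.45 and adjusted p values of 0.0529 to 0.107. The remaining BMPR2 probe set, Bt.27982.1.A1_at, shares its source sequence with Bt.27982.1.S1_at, read 3.52 to 4.07 on the 16 arrays, under the lower quartile of each, and differed by 0.14 ± 0.12 (adjusted p = 0.466) and 0.22 ± 0.12 (adjusted p = 0.218). The mean of the 3 BMPR2 probe sets rose by 0.38 (adjusted p = 0.00602) and by 0.44 (adjusted p = 0.00219).

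ACVR2A and ACVR2B are type II receptors shared by activins and BMPs, and each had 1 probe set. ACVR2A read 5.27, 5.22, 5.20 and 5.11 in control, 5.42, 5.49, 5.13 and 5.21 with LH, 5.39, 5.67, 5.53 and 5.47 with BMP6, and 5.53, 5.46, 5.47 and 5.21 with LH+BMP6. The BMP6 arrays lay above the control arrays, but the LH and LH+BMP6 arrays overlapped. ACVR2A was called in BMP6 against control (0.32 ± 0.10, 1.24-fold, adjusted p = 0.0327) and not in LH+BMP6 against LH (0.10 ± 0.10, adjusted p = 0.522). The difference between these effects was -0.21 ± 0.14 (95% interval -0.50 to 0.08), which is not called, so an unequal response with and without LH was not shown. The ACVR2A call held under 9 of 21 alternatives. It was lost without the 3 low-hybridisation arrays (0.35, adjusted p = 0.0987), under quantile normalization (0.28, adjusted p = 0.0765) and without any 1 of control replicates 1, 2, 3 and 4 or BMP6 replicates 2, 3 and 4 (0.27 to 0.34, adjusted p = 0.0501 to 0.102).

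ACVR2B read 6.35 to 6.99 over the 16 arrays and its groups overlapped. Its differences were -0.10 ± 0.10 (95% interval -0.31 to 0.12) and -0.12 ± 0.10 (-0.34 to 0.09). Within arrays, BMPR2 on Bt.25715.1.A1_at changed more upward than ACVR2B by 0.49 (exact permutation p = 0.00122, adjusted p = 0.00429) and ACVR2A more than ACVR2B by 0.32 (p = 0.00735, adjusted p = 0.0129). BMPR2 on Bt.25715.1.A1_at and ACVR2A differed in change by 0.17 (exact p = 0.151, adjusted p = 0.211). On Bt.27982.1.S1_at the BMPR2 rises were larger, at 0.58 and 0.77, beside 0.32 and 0.10 for ACVR2A. No pair was run on that probe set.

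ENG encodes endoglin, a co-receptor of the transforming growth factor beta family that is abundant on endothelial cells and also found on stromal cells and macrophages. Its arrays read 6.72, 6.31, 6.65 and 6.76 in control, 6.39, 6.08, 6.86 and 6.73 with LH, 7.27, 6.96, 7.36 and 7.33 with BMP6, and 7.41, 7.0, 6.94 and 7.21 with LH+BMP6. All arrays with BMP6 lay above all arrays without it, with LH replicate 3 and LH+BMP6 replicate 3 the closest pair across that line. ENG rose by 0.62 ± 0.16 in each comparison (1.54-fold, adjusted p = 0.0105 without LH and 0.00902 with LH). By replicate number the rise was 0.56 to 0.71 without LH but 0.08 to 1.01 with LH, where number 3 gave the smallest value. Without the 3 low-hybridisation arrays the differences were 0.69 (adjusted p = 0.0438) and 0.58 (adjusted p = 0.0448).

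BAMBI, the kinase-less decoy of type I receptors and itself a known target of BMP signalling, had the smallest adjusted p of the members in both comparisons. Control arrays read 6.57, 6.81, 7.22 and 7.28 and LH arrays 7.16, 7.35, 7.09 and 7.15. BMP6 arrays read 8.49, 8.49, 8.56 and 8.65 and LH+BMP6 arrays 8.73, 8.36, 8.47 and 8.55. A gap of about a log2 unit separated the highest array without BMP6 from the lowest with it, and the arrays with BMP6 lay close together while the control arrays were the most spread. BAMBI rose from 6.97 ± 0.34 to 8.54 ± 0.08 with BMP6 alone, a difference of 1.58 ± 0.13 (2.98-fold, limma adjusted p = 5.82e-07). With LH present it rose from 7.19 ± 0.11 to 8.53 ± 0.15, a difference of 1.34 ± 0.13 (2.53-fold, adjusted p = 2.72e-06). The effects with and without LH differed by -0.24 ± 0.18 (95% interval -0.62 to 0.15), which is not called. Without the 3 low-hybridisation arrays BAMBI rose by 1.5 (adjusted p = 9.42e-06) and 1.33 (adjusted p = 5.95e-06).

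TMEM100 encodes a small membrane protein known as a target of BMP9 and BMP10 signalling in endothelial cells, and it showed the largest difference of the members. On Bt.1787.2.S1_at the control arrays read 7.09, 6.56, 7.47 and 7.69 and the LH arrays 7.11, 6.52, 7.37 and 7.38. The BMP6 arrays read 8.42, 9.73, 8.56 and 9.10 and the LH+BMP6 arrays 8.75, 9.34, 8.81 and 8.37. The groups with and without BMP6 did not overlap, and replicate 2 was the lowest array of both groups without BMP6 and the highest of both groups with it. TMEM100 rose by 1.75 ± 0.29 (3.36-fold, limma adjusted p = 0.000443) without LH and by 1.72 ± 0.29 (3.29-fold, adjusted p = 0.000441) with LH. By replicate number the rise was 1.33, 3.17, 1.09 and 1.41 without LH and 1.64, 2.81, 1.44 and 0.99 with LH, so that number 2 gave the largest value in each. Over the alternatives the difference ranged from 1.28 to 1.97 without LH and from 1.36 to 1.96 with LH, and it was called in 22 of 22 in each. Without the 3 low-hybridisation arrays it was 1.83 (adjusted p = 0.00657) and 1.72 (adjusted p = 0.00319).

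The other TMEM100 probe set, Bt.1787.1.S1_at, read 3.91 to 4.71 and was not called (0.28 ± 0.15, adjusted p = 0.24 without LH; -0.04 ± 0.15, adjusted p = 0.896 with LH). The mean of both TMEM100 probe sets rose by 1.01 (adjusted p = 0.00149) and by 0.84 (adjusted p = 0.00505). Within arrays the changes of BAMBI and of TMEM100 on Bt.1787.2.S1_at differed by -0.28 (exact permutation p = 0.274, adjusted p = 0.274).

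**Figure D2:**
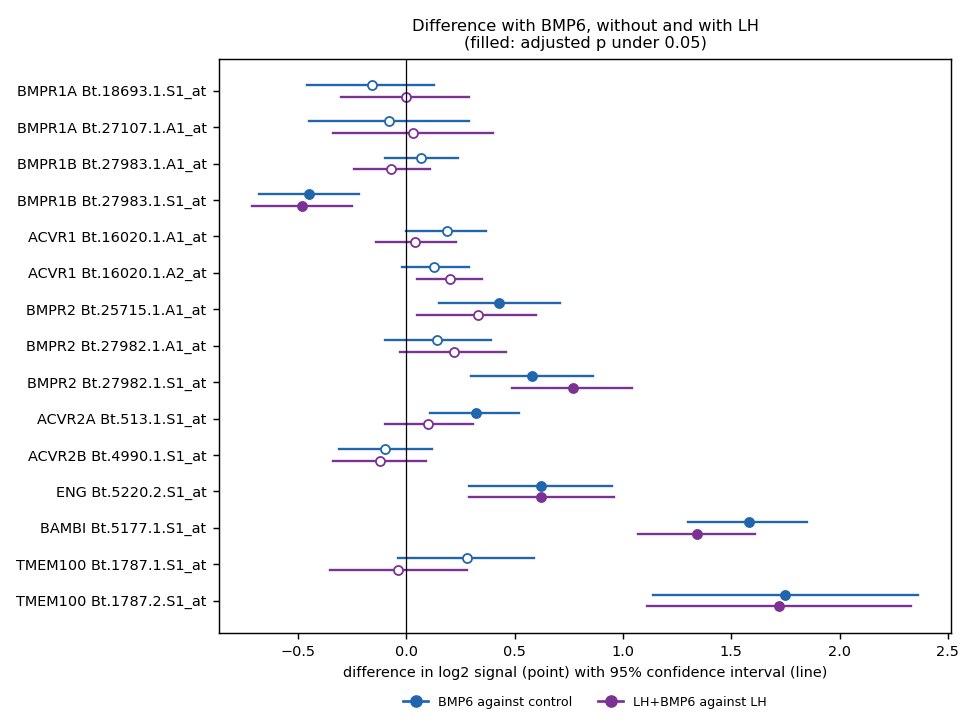
Difference in log2 signal (horizontal axis) for the 15 member probe sets in BMP6 against control (blue) and LH+BMP6 against LH (purple); points are differences of 4-array means, lines are 95% confidence intervals and filled points have an adjusted p under 0.05. TMEM100 Bt.1787.2.S1_at and BAMBI lie farthest to the right, at 1.34 to 1.75, and BMPR1B Bt.27983.1.S1_at alone is called to the left of 0, at -0.45 and -0.48.

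LH was compared with control, and LH+BMP6 with BMP6, to see whether the gonadotropin that drives theca steroid synthesis moves the receptors. No member passed the test by limma in either comparison: 0 of 15 probe sets were called with LH alone, against 0.0125% of all probe sets (3 of 24016), and 0 of 15 when LH was added to BMP6, against 0%. At an unadjusted p under 0.05 the members counted 0 in both, while 1291 (5.38%) and 471 (1.96%) of all probe sets reached it. The largest LH difference of a member was 0.27 ± 0.15 for TMEM100 Bt.1787.1.S1_at (95% interval -0.05 to 0.58), a probe set of low signal. BAMBI differed by 0.22 ± 0.13 with LH (-0.05 to 0.49). With BMP6 present, BAMBI differed by -0.02 ± 0.13 (-0.29 to 0.26) and BMPR2 Bt.25715.1.A1_at by -0.24 ± 0.13 (-0.51 to 0.04).

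For the 5 probe sets called in both comparisons, the arrays with BMP6 did not overlap those without it. In the order of group means LH and control were therefore neighbours, as were LH+BMP6 and BMP6. That order follows from the BMP6 difference and tells nothing about LH. In BAMBI, ENG and TMEM100 the mean with BMP6 alone was the highest, and in BMPR2 Bt.27982.1.S1_at and BMPR1B Bt.27983.1.S1_at the LH+BMP6 group was the farthest from control. None of these neighbours differed beyond the test. No interaction of LH and BMP6 was called for a member (0 of 15, and 0 at an unadjusted p under 0.05), nor for any other probe set by limma (0%), with 773 (3.22%) at an unadjusted p under 0.05. With an SE of 0.41 for TMEM100 Bt.1787.2.S1_at the interaction had a 95% interval of -0.89 to 0.83, the widest of the members, and for ACVR1 Bt.16020.1.A2_at it was -0.15 to 0.29.

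**Figure D3:**
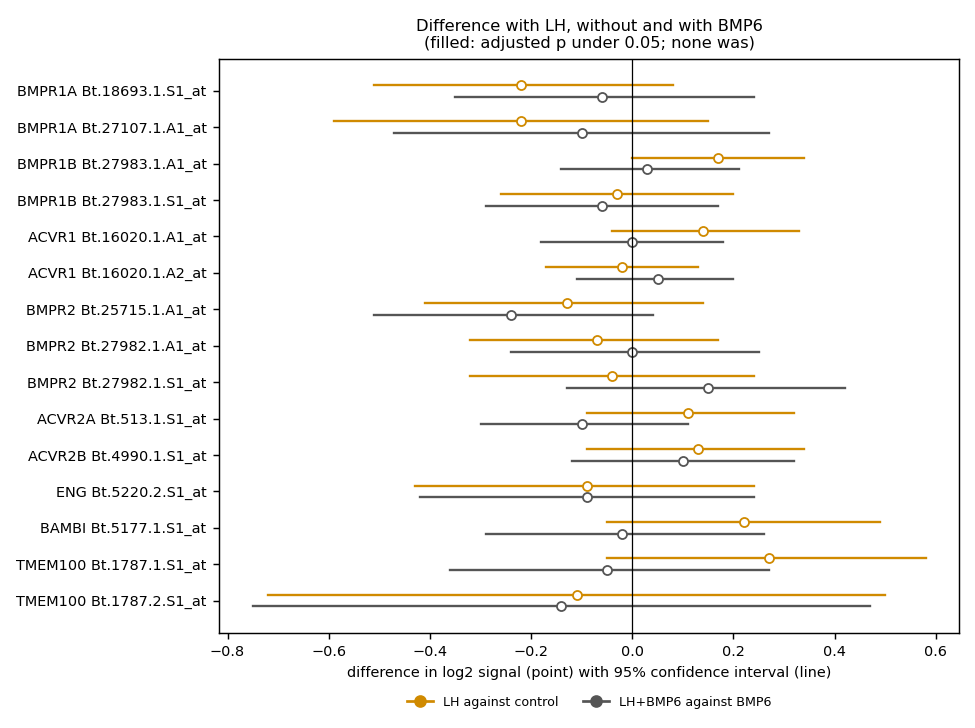
Difference in log2 signal (horizontal axis) for the 15 member probe sets in LH against control (ochre) and LH+BMP6 against BMP6 (grey); points are differences of 4-array means and lines are 95% confidence intervals. No point is filled, since 0 of 15 probe sets had an adjusted p under 0.05 in either comparison, and the axis spans less than that of the BMP6 differences.

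Other genes of the pathway were counted in lists, with 1 probe set per gene. Among ligands, 16 of 26 listed symbols were measured. INHA, the inhibin alpha subunit, fell with BMP6 alone (-4.13 ± 0.24) and with LH present (-3.58 ± 0.24). BMP2 rose by 0.42 ± 0.11 without LH (adjusted p = 0.0101), at a mean signal of 3.76, under the lower quartile of the arrays. Its difference with LH was 0.19 (adjusted p = 0.239). INHBA, the activin A subunit, rose by 0.45 ± 0.15 with LH (adjusted p = 0.0347), and its 0.40 without LH was not called (adjusted p = 0.0666). No other measured ligand gene was called, and the list median was 0.08 and 0.02. The further receptors of the family that were measured, 3 of 12 listed symbols (ACVRL1, TGFBR1 and TGFBR2), counted 0 called in each direction in both comparisons, with differences of -0.13 to 0.17 without LH.

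Of the SMAD genes and their regulators, 4 of 12 were measured. SMAD3, which carries activin and transforming growth factor beta signals, fell (-0.50 ± 0.10, adjusted p = 0.00175) and SMAD4, the common partner, rose (0.25 ± 0.08, adjusted p = 0.0444) with BMP6 alone. With LH present the called gene was SMAD2, also on the activin branch (0.36 ± 0.08, adjusted p = 0.00449). In the other comparison each of these genes had the same sign and was not called. SMAD2 differed by 0.22 (adjusted p = 0.0733) without LH, and SMAD3 by -0.28 (adjusted p = 0.0522) and SMAD4 by 0.17 (adjusted p = 0.186) with LH. The remaining measured gene, SMAD5, was called in neither comparison by limma. It differed by -0.03 (adjusted p = 0.904) without LH and by -0.05 (adjusted p = 0.835) with LH. Among secreted antagonists, 5 of 14 were measured and 0 were called without LH, with a list median of 0.31. With LH, FST, the activin-binding follistatin, rose by 0.68 ± 0.22 (adjusted p = 0.0353) and SOSTDC1, a BMP antagonist of low signal here, rose by 0.81 ± 0.24 (adjusted p = 0.0258). Without LH they differed by 0.47 (adjusted p = 0.162) and 0.66 (adjusted p = 0.0739). Their interactions of 0.21 ± 0.31 and 0.15 ± 0.35 were not called, so an unequal response with and without LH was not shown.

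Of the known BMP target genes, 6 of 15 were measured and 3 were called higher in both comparisons. ID1, a transcriptional inhibitor that BMPs switch on directly, rose by 2.71 ± 0.20 and 2.82 ± 0.20, ID3 by 1.62 ± 0.18 and 1.85 ± 0.18, and ID2 by 1.40 ± 0.18 and 1.66 ± 0.18. Without LH, BAMBI at 1.58 lay between ID2 and ID3, and TMEM100 at 1.75 lay above both. With LH, TMEM100 at 1.72 lay between them, and BAMBI at 1.34 lay below both. No test compared these sizes. HEY1, MSX1 and DLX5 from the same list were not called, with -0.07, 0.16 and 0.10 without LH. HEY1 and DLX5 had mean signals of 3.79 and 3.90, under the lower quartile of the arrays (4.31 to 4.43). MSX1 lay above it, at 5.89. BMP2, called higher without LH, and SOSTDC1, called higher with LH, had means of 3.76 and 3.70. Whether low signal hid a response of HEY1 or DLX5 was not tested.

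**Figure D4:**
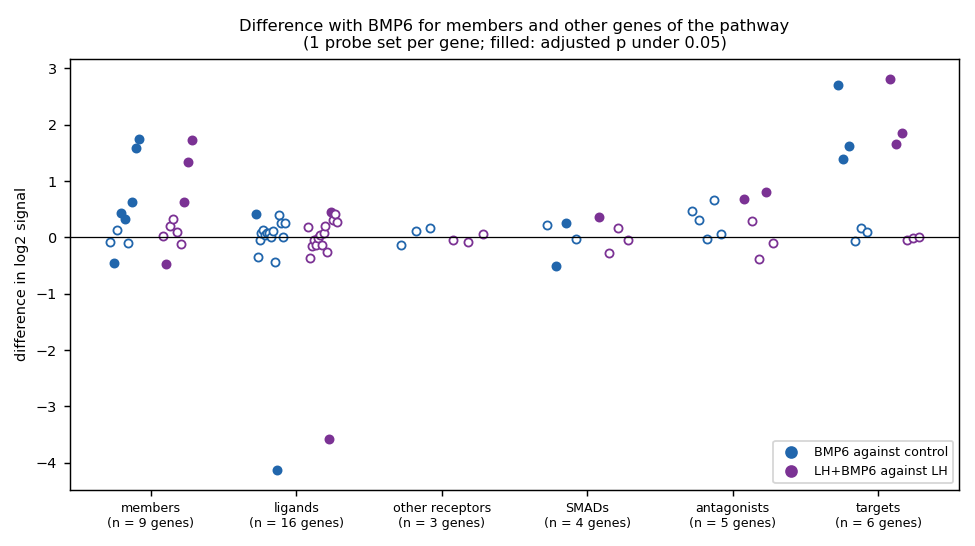
Difference in log2 signal (vertical axis) with BMP6, without LH (blue) and with LH (purple), for the 9 members and for the measured genes of 5 pathway lists, 1 point per gene and comparison; the probe set of highest mean signal stands for each gene and filled points have an adjusted p under 0.05. Filled points are found for 6 of 9 members without LH and 4 of 9 with LH, for ID1, ID2 and ID3 among the targets, and for 0 of 3 other receptors; INHA lies lowest, at -4.13 and -3.58.

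Genes whose profile over the 16 arrays was most like that of a member were found by the root mean square (RMS) difference of mean-centred log2 signals, over 9154 other named genes. For BAMBI these were SRPX (RMS 0.18), the lipase gene LPL (0.192) and RNF144B (0.195), against a median of 0.78 over all genes. For TMEM100 they were MMP1, a collagenase gene (RMS 0.262), EDN1, the endothelin 1 gene (0.268) and SLC2A3, a glucose transporter gene (0.283), against a median of 0.98. ENG was most like FCGR1A, an Fc receptor gene of macrophages (RMS 0.163), ACSL6 (0.176) and CST3 (0.18), with a median of 0.42.

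For BMPR2 Bt.27982.1.S1_at the nearest genes were PTPN9 (RMS 0.149), RILPL2 (0.155) and TEX2 (0.158), with a median of 0.42. For BMPR1B Bt.27983.1.S1_at they were USP53 (RMS 0.0868), MRPL2 (0.095) and SSR4 (0.101), with a median of 0.30. All profiles were taken over the same 16 arrays, 8 with BMP6 and 8 without, so each likeness is a description only.

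Markers of other cell types were set beside the members, since ENG and TMEM100 are also known from endothelial cells. Of 16 endothelial markers 15 were measured, 0 rose and 2 fell in both comparisons: CLDN5, a tight junction gene (-0.88 ± 0.27 and -1.03 ± 0.27), and SOX18, a vascular transcription factor (-0.69 ± 0.21 and -0.77 ± 0.21). Over all probe sets 8.12% were called higher and 9.95% lower without LH, and 9.99% and 10.3% with LH, beside which these and the later marker counts stand. The list median was -0.14 and -0.27. Markers not called went both ways without LH, such as PECAM1 (-0.44 ± 0.25), CDH5 (-0.28 ± 0.23) and VWF (0.17 ± 0.18). Of these 15, KDR, TIE1 and PLVAP had means under the lower quartile of the arrays and 12 did not, among them CDH5 (7.71), PECAM1 (6.80) and VWF (5.75), which also define endothelium. The log2 of the summed endothelial signal ran from 9.93 to 10.66 in control, 10.16 to 10.75 with LH, 9.59 to 10.21 with BMP6 and 9.63 to 10.14 with LH+BMP6.

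The median of the leukocyte list was 0.22 without LH and 0.35 with LH. Of 12 listed leukocyte markers 10 were measured, and CD14, a monocyte receptor, rose by 1.13 ± 0.24 without LH and by 1.04 ± 0.24 with LH. With LH, PTPRC (0.95 ± 0.26), CD3E (0.91 ± 0.23) and CD2 (0.89 ± 0.25), which mark leukocytes and T cells, rose as well, as did CD68, so 1 marker was called without LH and 5 with LH. LH replicate 1, a low-hybridisation array, was low for this list. PTPRC read 6.89 there and 8.12 to 8.57 on the other LH arrays, and the list mean was 5.94 against 6.29 to 6.38. No marker difference is given without that array. The summed leukocyte signal was 10.19 to 10.22 in control and 9.63 to 10.38 with LH, against 10.30 to 11.08 with BMP6 and 10.64 to 11.07 with LH+BMP6. ITGAM and CD79A had means under the lower quartile. The part of leukocyte transcripts in the ENG rise was not tested.

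Of 12 pericyte and fibroblast markers, all measured, 4 rose and 0 fell without LH, led by DES (0.76 ± 0.15), DCN (0.73 ± 0.16) and LUM (0.71 ± 0.16). With LH 3 rose and 2 fell, so called markers went both ways there. Only risers without LH are named, and the 2 that fell with LH are not named here. The list median was 0.25 without LH and 0.24 with LH. The summed signal of this list was 14.88 to 15.34 in control and 14.89 to 15.42 with LH, against 15.34 to 15.64 with BMP6 and 15.44 to 15.63 with LH+BMP6. Of 7 measured granulosa markers 1 was called, CDH2, at 1.67 ± 0.27 and 1.77 ± 0.27, while FSHR and AMH were under the lower quartile. A sum of signals, here and for the other lists, follows the brightest genes of a list. The summed granulosa signal overlapped across the groups. It was 13.03 to 13.19 in control, 13.10 to 13.36 with LH, 13.07 to 13.40 with BMP6 and 13.10 to 13.21 with LH+BMP6. The mean log2 signal of that list was far lower, at 5.73 to 6.00 in control, so the overlap says little about its dimmer markers. Theca markers fell in 6 of 7 without LH and 7 of 7 with LH, with medians of -2.21 and -2.73 and INSL3 at -5.70 ± 0.55 and -5.20 ± 0.55. Their summed signal was 14.38 to 14.76 in control, 14.57 to 15.14 with LH, 10.76 to 11.29 with BMP6 and 10.86 to 11.61 with LH+BMP6. INSL3 alone had a mean of 14.08 in control, so the control sum is largely INSL3. The part of these shifts in the rises of BAMBI, TMEM100, ENG and BMPR2 and in the fall of BMPR1B was not tested.

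**Figure D5:**
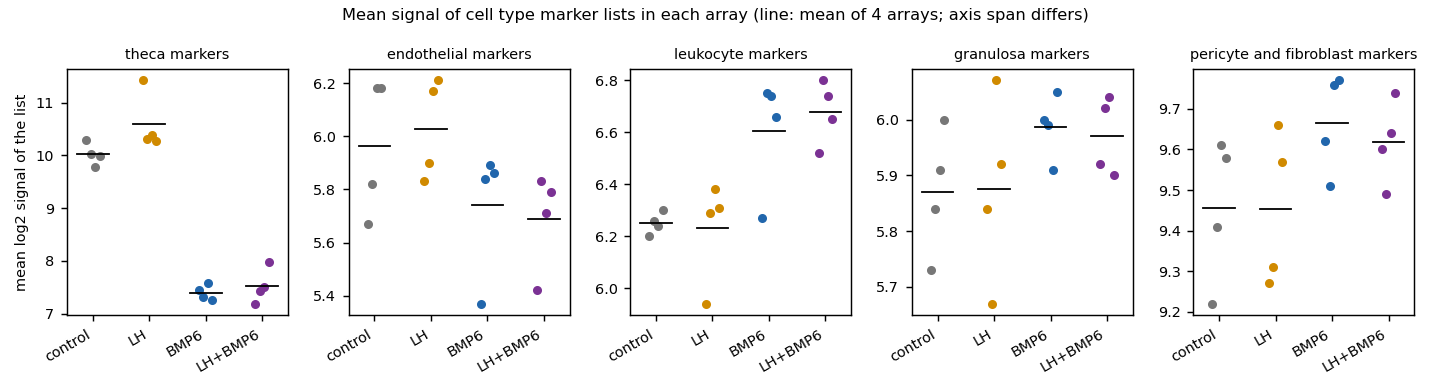
Mean log2 signal (vertical axis, its span set per panel) of 5 cell type marker lists in each of the 16 arrays, grouped by treatment; points are arrays and lines are means of 4 arrays. Theca markers lie lower in the arrays with BMP6 than in those without, while each of the other 4 lists overlaps between arrays with and without BMP6.

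RNA quality was compared by the signal at the 3 prime end minus that at the 5 prime end of the actin and GAPDH control probe sets, where a higher value means less complete RNA. For actin it was 1.86 ± 0.28 with BMP6 against 2.20 ± 0.35 in control (exact two-sided permutation p = 0.171, adjusted p = 0.257) and 1.72 ± 0.28 with LH+BMP6 against 2.10 ± 0.16 with LH (p = 0.0571, adjusted p = 0.114). For GAPDH it was 0.23 ± 0.04 against 0.34 ± 0.05 (exact p = 0.0286, which is the lower limit for groups of this size, adjusted p = 0.114) and 0.14 ± 0.02 against 0.27 ± 0.11 (exact p = 0.0571, adjusted p = 0.114). The hybridisation-control mean was 9.95 ± 0.08 against 9.35 ± 0.79 (exact p = 0.343, adjusted p = 0.411) and 9.96 ± 0.14 against 9.69 ± 0.65 (exact p = 0.771, adjusted p = 0.771). With 6 tests and this lower limit, adjustment leaves little room to pass. Over both LH conditions together, by exact permutation of the BMP6 label within each (a test added after the values were seen), the actin value was lower with BMP6 by 0.36 (-0.36, exact p = 0.0204, adjusted p = 0.0306 over 3 tests) and the GAPDH value by 0.12 (-0.12, exact p = 0.000816, adjusted p = 0.00245), and the hybridisation mean differed by 0.43 (exact p = 0.178, adjusted p = 0.178). The arrays with BMP6 thus also had the lower 3 prime excess, and its part in the rises of BAMBI, TMEM100, ENG and BMPR2 and the fall of BMPR1B was not tested. Without the 3 low-hybridisation arrays the 5 probe sets called in both comparisons stayed called, while the called probe sets on the whole array went from 4340 to 2660 in BMP6 against control and from 4879 to 3474 in LH+BMP6 against LH.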

How the data were processed

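The deposited table holds log2 signals, which the authors made with RMA in Affymetrix Expression Console, per the submitters' processing notes (version not given in the sources used). RMA corrects background, normalizes by quantiles and summarises the probes of a probe set, which holds back differences of dim probe sets. Of 24128 rows, 112 Affymetrix controls were left out. GEO's platform annotation gave 1 symbol to 13292 of 24016 tested probe sets; 86 had several and 10638 had none. Updating through Entrez identifiers (13263 found) changed 0 symbols. The probe set of highest mean signal stood for a gene where 1 value was needed.

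Group means of all 16 arrays were fitted with limma 3.58.1 in R 4.3.3 (lmFit, eBayes with trend), with Benjamini-Hochberg adjustment over all tested probe sets. Unless a permutation is named, an adjusted p comes from limma. Changes within arrays and RNA quality over both LH conditions were tested by exact two-sided permutation of the BMP6 label within each LH condition (4900 arrangements). The code was tested on simulated data. Tables used pandas 2.3.3 and numpy 2.4.6 under Python 3.11.15, and figures matplotlib 3.10.9.

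All 15 member probe sets are named. From each pathway list up to 3 called genes and from each marker list up to 4 genes of largest difference are named per comparison, and for each member called in both comparisons the 3 nearest profiles. HEY1, MSX1 and DLX5, SMAD5, the 3 further receptors, CD68, CDH5, PECAM1, VWF and markers of low signal were named after their values were seen. Members and lists were chosen with earlier results of these data known. ACVRL1 is in both the receptor and the endothelial list. The labels say that the cultures were repeated on different ovary batches but do not tie each replicate number to a batch, so the main fit has no block. Alternatives were the replicate block (statmod 1.5.0), the variance prior, a filter at the 40th percentile of mean signal, the arrays in the fit, normalization, the mean of a gene's probe sets, the low-hybridisation arrays, and leaving out each array. Promoter and protein sequences were not used here.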

Additional observations from a re-analysis of the deposited data

Results flagged for a closer look

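The mean signal of the hybridisation-control probe sets on LH replicate 1 was 8.71, far below the other 3 LH arrays, by Dixon's test for a sample apart from its group of 4. It was 1 of 12 groups of quality values tested, and chance flags about 1 group in 20. Of 60 groups of member values (15 probe sets in 4 groups), 0 held such an array. Without this array and the other 2 of low signal, BAMBI, TMEM100, ENG, BMPR1B and BMPR2 Bt.27982.1.S1_at kept their calls in both comparisons of BMP6.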

How the results depend on the processing

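BAMBI, ENG, TMEM100 Bt.1787.2.S1_at, BMPR2 Bt.27982.1.S1_at and BMPR1B Bt.27983.1.S1_at kept their direction and call in both comparisons of BMP6 under every alternative fitted to the probe set. The count of called members moved from 7 to between 5 and 6 when 1 array was left out of BMP6 against control, and from 5 to between 5 and 6 in LH+BMP6 against LH. The count of all called probe sets ranged from 3140 to 4049 and from 3666 to 4867 in those fits. In BMP6 against control it was 4340 and moved to 2660 without the 3 low-hybridisation arrays and to 2766 with low hybridisation as a term. In LH against control it was 3, and it moved to 1 with only the arrays compared and to 0 without the 3 low-hybridisation arrays; it ranged from 1 to 6 without 1 array and from 1 to 6 without a replicate number. The cause was not tested.

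With the replicate block as a fixed term the counts were 5202 in BMP6 against control, 5706 in LH+BMP6 against LH and 2 in LH against control, and no member call changed. With a random block they were 4970, 5565 and 3, and ACVR1 Bt.16020.1.A2_at was called with LH present (0.20, adjusted p = 0.0477). Deviations of same-numbered arrays correlated at a mean of 0.04 for BMP6 and control (-0.11 to 0.15), 0.16 for LH and control (0.02 to 0.32), 0.20 for LH+BMP6 and LH (0.09 to 0.27) and 0.38 for LH+BMP6 and BMP6 (0.08 to 0.69), against -0.01, -0.05, -0.07 and -0.12 for different numbers. The mean of same-numbered arrays was the higher in each comparison, yet at least 1 same-numbered pair in each was under 0.1. These correlations do not settle whether the numbers pair the arrays, so the block was kept as an alternative. Probe sets of low signal, such as BMPR1B Bt.27983.1.A1_at, BMPR2 Bt.27982.1.A1_at and TMEM100 Bt.1787.1.S1_at, give differences that RMA may hold back.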
